A study of Mus musculus with 8 samples.

Results

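The 4 wildtype arrays of the series describe which genes were abundant, dim or not measurable in nephron progenitor cells of the wildtype mouse kidney at embryonic day 15.5. They are 4 of 8 arrays. The other 4 hold cells with floxed Hdac1 and Hdac2 alleles, and the sample titles call these cells null for both genes. These 4 arrays serve here only for the comparison of pool numbers. The baseline holds each probe whose Cy5 spot was flagged by the scanner software as well above background on 3 or all 4 of the wildtype arrays. By this rule 29745 of 55681 probes (53.4%) belonged to it, and through them 14822 of the 20887 genes with a symbol (71.0%). On all 4 arrays 14421 genes were well above background.

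The wildtype cells came from C57BL/6 kidneys with the genotype Six2CreEGFP+; HDAC1&2+/+, so they carry the Six2-driven transgene for Cre and enhanced green fluorescent protein (EGFP) but have intact deacetylase genes, and the mutant cells were Six2CreEGFP+; HDAC1&2f/f. EGFP+ cells were sorted by flow cytometry and combined into pools numbered 1 to 4 in each genotype. The sources used here do not say how many embryos a pool holds or whether pools share animals. Each array compared Cy5-labelled RNA of 1 pool with Cy3-labelled RNA of wildtype pool 1, from 0.5 µg of total RNA, so that both dyes of wildtype array 1 held 1 RNA. The transgene is active in the cap mesenchyme, and EGFP can outlast the activity of its promoter in the daughters of those cells, so a sorted pool can hold early descendants of progenitors.

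Nephron progenitors are the mesenchymal cells that cap the tips of the branching ureteric bud. They divide and renew under FGF, BMP7 and low canonical Wnt signals, and are held undifferentiated by the transcription factor Six2. A stronger Wnt signal from the bud, followed by Wnt4 in the cells themselves, turns some of them into the pretubular aggregate and renal vesicle, from which podocytes and all tubule segments up to the collecting duct arise. Cited1 marks the least committed of these cells, and expression of Cited1 ends before that of Six2.

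Wildtype array 2 stood apart from the others. It had 48627 probes well above background in Cy5 and 47833 in Cy3, whereas the other 3 had 29199 to 33982 in Cy5 and 29617 to 34468 in Cy3. The excess lay in dim spots. For probes with a mean level of 4 to 6 on the other arrays, array 2 was higher by a median of 1.94 in Cy5 and 1.36 in Cy3 on the log2 scale, and for probes at 14 to 16 by 0.31 and 0.11. Its negative control spots were as dark as on the other arrays (a median Cy5 signal of -4, against -5 to -3), and no spot was saturated on any wildtype array. Counts of genes that were not measurable are therefore given with and without array 2. Pools 3 and 4 differed from each other by no more than arrays of the same RNA. Their Cy5 levels had a median absolute deviation of 0.0909 over 5810 probes at levels of 10 to 12, where the Cy3 channels of the wildtype arrays, which hold 1 RNA, differed by 0.0792 to 0.150 and the other pairs of wildtype pools by 0.196 to 0.310 in Cy5. Pools 3 and 4 were averaged and counted as 1 sample, so means and standard deviations (SD) below are over 3 samples.

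**Figure D1:**
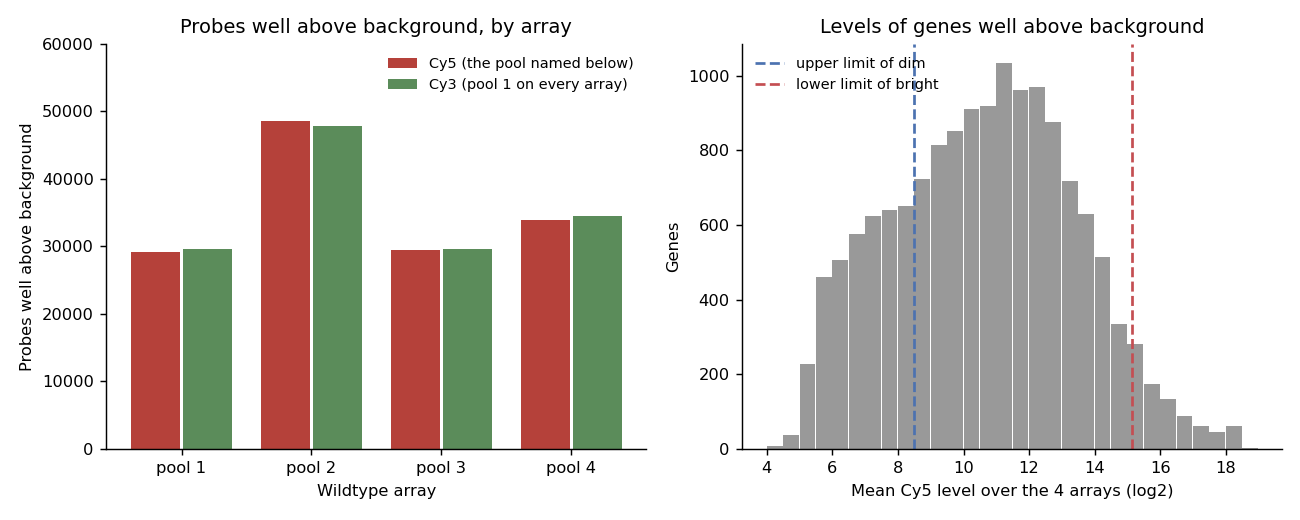
Left, the number of probes well above background on each wildtype array, in Cy5 (the pool named on the axis) and Cy3 (wildtype pool 1 on every array). Right, a histogram of the mean Cy5 level of the 14822 genes well above background, with dashed lines at the upper limit of the dim class (8.49) and the lower limit of the bright class (15.15). Array 2 reached 48627 probes in Cy5 against 29199 to 33982 on the others.

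The level of a gene is the log2 of the Cy5 spot signal minus its local background, from the brightest of its probes. Levels of the 14822 genes ran from 4.34 to 18.61, with a median of 10.71. The brightest 5% of them (742 genes, at 15.15 or above) are called bright here, the lowest 25% (3706 genes, at 8.49 or below) dim, and the 10374 between them middle. Brightness depends on the probe as well as on the RNA. Among 3854 genes with 2 or more probes in the baseline, the probes of 1 gene spanned a median of 2.12 on the log2 scale, and in 52.5% of these genes they spanned 2 or more. The classes are thus classes of spots, and their order is not an order of RNA abundance between genes. Between samples levels were close: among the 8708 genes at a level of 10 or more, the median SD over the 3 wildtype samples was 0.242 in Cy5, against 0.147 for the single RNA in Cy3 over the 4 arrays.

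The 4 genes that mark the cells were all well above background on all 4 arrays. Six2, the factor that keeps the progenitors undifferentiated, had levels of 14.94, 15.52, 14.86 and 14.97 in pools 1 to 4 (mean 15.13 ± 0.34, SD, n = 3). Cited1, a transcriptional co-activator of the least committed cells, had levels of 15.60, 15.65, 15.73 and 15.74 (15.66 ± 0.07). Wt1, a zinc finger factor of progenitors and later of podocytes, had levels of 15.04, 15.59, 15.39 and 15.38 (15.34 ± 0.28). The homeobox gene Meox2 had levels of 11.72, 12.78, 11.96 and 11.91 (12.15 ± 0.56). The 4 pools were alike for Cited1, and pool 2 was the highest for Six2, Wt1 and Meox2. Once pool 2 was set against pool 1 on the normalized ratio scale, which takes account of the brighter array, it was higher by 0.21 for Six2, 0.22 for Wt1 and 0.36 for Meox2, and the difference was -0.22 for Cited1. None of the 4 genes passed the test for a pool effect described below. A second Six2 probe, at 10.40, 11.26, 10.62 and 10.39, was dimmer and also highest in pool 2.

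All 39 genes of the nephron progenitor list were well above background on at least 3 arrays, against 71.0% of all symbols, with a median level of 11.84. Its brightest members were Cited1, the FGF receptor Fgfr1 (15.49 ± 0.23) and Eya1 (15.38 ± 0.15), a phosphatase that acts with Six2 and its relatives. Gdnf, the growth factor by which the cap mesenchyme draws out the ureteric bud, was at 13.46 ± 0.28, and the integrin Itga8 at 12.39 ± 0.14. The zinc finger factors Sall1 (11.84 ± 0.08) and Osr1 (11.14 ± 0.54) were in the middle class. Pax2, a paired-box factor required in the cap mesenchyme, was dim on 3 arrays, with levels of 6.82, 11.29, 7.69 and 7.52. The high value was that of array 2, where dim spots were raised. Sall3 (5.34) and Lypd1 (5.30) were also in the dim class, by their mean levels over the 4 arrays. Of the 39 genes, 12 also stand in another list used here.

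The Hox genes, which pattern the body axis and of which the paralogs of group 11 are required for kidney formation, were measured nearly as a set. Of 39 on the array, 34 were well above background (87.2%), with a median of 11.39. Hoxb7 (13.40 ± 0.12), Hoxb6 (13.22 ± 0.15) and Hoxa11 (13.05 ± 0.23) were the brightest, and Hoxd11 was at 12.16 ± 0.36. Of the 5 that were not, 4 belong to paralog groups 12 and 13, at the 5′ ends of the clusters. Hoxb13 was not well above background on any array, Hoxc13 on array 2 alone, Hoxa13 and Hoxc12 on 2 arrays, and Hoxd13 was the dimmest measured member with a mean of 5.71. The fifth, Hoxb1, at the other end of its cluster, was also not well above background on any array. Of 9 Pax genes, Pax8 (11.97 ± 0.08), a factor of the early nephron, and Pax2 were well above background on at least 3 arrays, and the other 7 were on none of arrays 1, 3 and 4. All 4 Eya genes and 4 of 6 genes of the Six2 family belonged to the baseline. Among other transcription factor families the shares were 73.7% of 19 Sox genes, 63.6% of 44 Fox genes, 53.8% of 13 Tbx genes, all 6 Irx genes and 95.1% of 364 Zfp zinc finger genes.

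**Figure D2:**
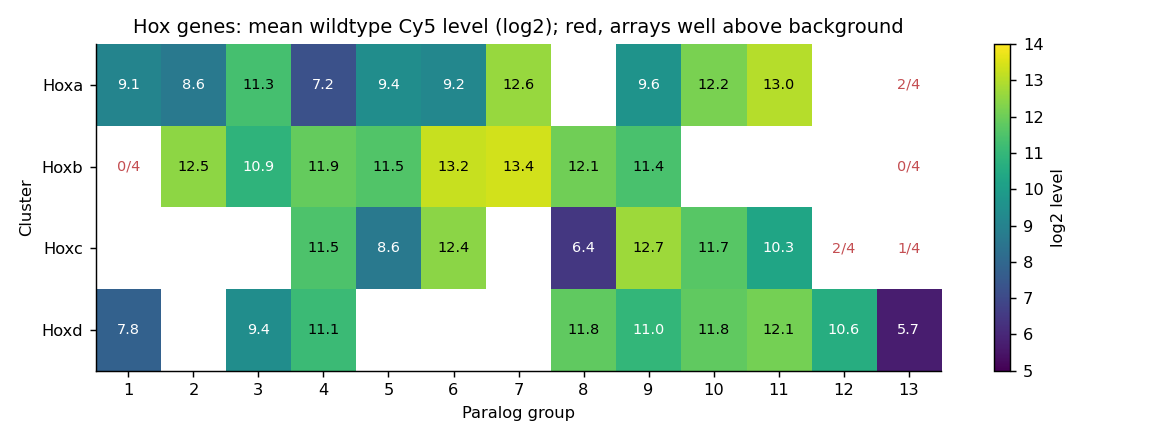
Hox genes on the array by cluster (rows) and paralog group (columns). Colour and number give the mean wildtype Cy5 level (log2) where the gene was well above background on 3 or 4 arrays. Red fractions give the number of arrays where it was not on that many, and blank cells hold no measured gene. All measured members of paralog groups 2 to 11 were well above background, and 4 of the 5 red fractions lie in groups 12 and 13.

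The signalling pathways that act on these cells were represented at nearly every level. In the FGF and receptor tyrosine kinase list 29 of 30 genes were well above background. Fgfr1 was the brightest, followed by the FGF target Etv5 (14.87 ± 0.14) and the ligand Pdgfa. The ligands that maintain progenitors were of middle or low brightness, Fgf9 at 10.67 ± 0.11, Fgf8 at 10.63 ± 0.33 and Fgf20 at 8.05 ± 0.72. Spry4, a feedback inhibitor, was on none of arrays 1, 3 and 4. All 34 genes of the BMP and TGF beta list were measured, with Id3, a target of BMP signals, the receptor Acvr2b and the signal transducer Smad5 the brightest, and the ligand Bmp7 at 13.56 ± 0.35. In the Wnt list 38 of 40 were well above background. The effector Ctnnb1 (beta-catenin), the ligand Wnt4 (14.56 ± 0.05) and the kinase Gsk3b led it, all 10 Frizzled receptors were measured, and Wnt2b and the receptor Lgr6 were not well above background on any array. All 27 Notch pathway genes were measured, with the protease Adam10, the glycosyltransferase Rfng and the target Hes5 the brightest.

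Retinoic acid, made in the stroma, and the renin-angiotensin system also act in the embryonic kidney. In the retinoic acid list 18 of 19 genes were well above background. The synthesizing enzyme Aldh1a2 (15.81 ± 0.38) and the reductase Dhrs3 were among its bright genes, and Cyp26c1, a degrading enzyme, was well above background on array 2 alone. In the renin-angiotensin and kinin list 12 of 15 were, and the renin receptor Atp6ap2 and the angiotensin receptor Agtr2 were among the brightest. The kinin receptor Bdkrb1 was not well above background on any array. The basement membrane and adhesion list had 34 of 35 genes, led by the laminin chain Lamb1, the integrin Itga6 (14.92 ± 0.23) and fibronectin (Fn1).

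Genes of cell division were among the brightest lists. Of 39 S phase genes 38 were well above background with a median of 14.12, against 10.71 for all genes in the baseline. The helicase subunits Mcm6 (16.62 ± 0.27) and Mcm7 and the polymerase clamp Pcna led it. The G2/M list also had 38 of 39 genes, at a median of 12.94, led by Birc5, the kinetochore gene Spc25 and Cdc20. The exceptions were Ccne2 in the first and Aurkb in the second, which were not well above background on any array. Cdkn1c, a cell cycle inhibitor that is imprinted, was at 17.34 ± 0.13 and led both the list of inhibitors (9 of 10 genes) and that of imprinted genes (33 of 36), the latter followed by Gnas and Mest. The glycolysis and hypoxia list had all 28 genes, 9 of them bright, led by Gapdh, Ldha and Aldoa.

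Genes that mark developmental timing were all measured, 10 of 10. The chromatin protein Hmga1 was bright, Hmga2 was at 14.49 ± 0.56, Mycn at 13.13 ± 0.37 and the let-7 inhibitor Lin28b at 9.63 ± 0.67. All 29 histone deacetylase and co-repressor genes were well above background, with Mbd3, Rbbp4 and Chd4, subunits of the NuRD complex, the brightest. The spot of Hdac1 was at 15.66 ± 0.21 and that of Hdac2 at 8.96 ± 0.49. Of 26 Polycomb and DNA methylation genes 25 were, with Phc2, Uhrf1 and Eed the brightest and Cbx7 not well above background on any array. In the list of p53 and its targets 19 of 20 were, led by Aen, Phlda3 and the p53 inhibitor Mdm2, and the receptor Eda2r was not well above background on any array.

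Stress genes that respond within minutes, and that dissociating and sorting tissue can induce, were mostly measured at middle levels. Of 32 genes in that list 27 were well above background, with a median of 10.37. Its brightest were the chaperones Hspa8 and Dnajb1 and the factor Jund. Fos was dim, with levels of 5.49, 6.55, 6.06 and 6.13. Junb and Fosl1 were on none of arrays 1, 3 and 4, and Zfp36 was not well above background on any array.

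Genes of later nephron stages were widely detected. All 28 genes of the early nephron list were well above background, with a median of 11.81, and none was dim. Wt1, the cyclin Ccnd1 (15.14 ± 0.13) and Wnt4 led it, and 16 of its genes also stand in another list. Of 22 podocyte genes 20 were, led by Cdkn1c, Wt1 and Efnb1, and 8 of the 22 also stand in another list. Nphs1, a slit diaphragm gene that defines that cell, was dim, at 5.52, 8.05, 7.51 and 7.55. Of 29 proximal tubule genes, none shared with another list, 26 were, with the cadherin Cdh16, the peptidase Anpep and the factor Hnf4a the brightest. The phosphate transporter Slc34a1 was at 9.53, 7.44, 11.20 and 11.07 and the endocytic receptor Lrp2 at 11.18, 10.20, 12.80 and 12.61. Both were highest in pools 3 and 4 and lowest in pool 2, although array 2 was the brighter array. In the list for distal tubule and loop of Henle 21 of 23 were, with a median of 9.12, led by Wfdc2, Wnk1 and Irx3. The thick limb genes Umod (6.81, 7.19, 8.03 and 8.01) and Slc12a1 (6.91, 5.09, 8.57 and 8.47) were dim.

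Genes of cells outside the nephron lineage were also well above background, although the cells were sorted for EGFP. In the ureteric bud and collecting duct list all 31 were, with a median of 10.36 and Krt18, Etv5 and Etv4 the brightest. Of these 31 genes 8, Etv5 among them, also stand in another list, as do 3 of the 32 stroma genes. The defining bud genes Ret (10.29 ± 0.13), Wnt9b (10.31 ± 0.26), Wnt11 (11.32 ± 0.26) and Gata3 (13.05 ± 0.18) were in the middle class. In the interstitial stroma list 31 of 32 were, with a median of 12.45, led by Col1a2 (16.94 ± 0.10), Aldh1a2 and Col1a1 (15.46 ± 0.26). Among its defining genes Dcn was at 15.18 ± 0.25, Pdgfra at 12.45 ± 0.16 and Foxd1 at 12.18 ± 0.63. All 28 endothelial genes were, with a median of 11.13, led by Egfl7, Cd34 and Icam2. Kdr (12.34 ± 0.02), Cdh5 (11.58 ± 0.06) and Emcn (11.11 ± 0.23) were in the middle class, and Pecam1 was at 9.43 ± 0.73.

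Blood cell genes followed the same pattern. Of 26 macrophage and leukocyte genes 24 were well above background, led by Csf1r (12.78 ± 0.20), Pf4 (11.99 ± 0.03) and Itgam. Of 26 erythroid genes 24 were, and the adult globins Hba-a2 (18.36 ± 0.07), Hba-a1 (18.09 ± 0.08) and Hbb-bt (17.82 ± 0.14) were among the brightest spots of the array. Alas2, the first enzyme of heme synthesis in red cells, was at 12.16 ± 0.09. The summed Cy5 signal of each of these lists was compared between pools. On the log2 scale it ranged over the 4 wildtype arrays from 20.15 to 20.34 for the erythroid list, from 17.38 to 17.60 for endothelium, from 18.78 to 19.08 for stroma, from 17.23 to 17.60 for the ureteric bud and over 0.52, up to 15.53, for macrophages, the widest of these. The nephron progenitor list ranged from 18.48 to 18.92. These sums are not normalized between arrays, and each range had its top on array 2, the brighter array. On the normalized ratio scale, the macrophage list had a median of pool 2 minus pool 1 of -0.27 (all genes, -0.06). There, 15 of its 24 genes lay below 0 and 9 above. The shift was not particular to that list. The same median was -0.27 for endothelium (25 of 28 genes below 0) and -0.24 for the erythroid list (15 of 23). It was -0.20 for the ureteric bud and -0.18 for stroma (21 of 31 in each), and 0.04 for the nephron progenitor list (15 of 39). In RNA of a whole pool, fewer cells of a type and less RNA per cell cannot be told apart, and whether these transcripts came from other cells or from the progenitors was not tested.

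Neuronal genes were dim. Of 28, 22 (78.6%, against 71.0% of all symbols) were well above background with a median of 7.80, against 10.71 for all genes in the baseline, led by Snap25, Gap43 and Dcx. Both sexes were represented in the pools. Xist, the RNA that coats the inactive X chromosome in female cells, was at 10.23, 10.83, 10.76 and 10.67. The Y-linked genes Ddx3y (9.65, 9.81, 9.34 and 9.38), Eif2s3y (8.57, 9.07, 8.69 and 8.61) and Uty (4.93, 6.00, 4.78 and 5.32) were well above background on all 4 arrays. Kdm5d, Sry, Zfy1 and Usp9y were on array 2 alone, where dim spots were raised, and Zfy2 on 2 arrays, array 2 among them. Values of both kinds in every pool show no pool of a single sex.

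**Figure D3:**
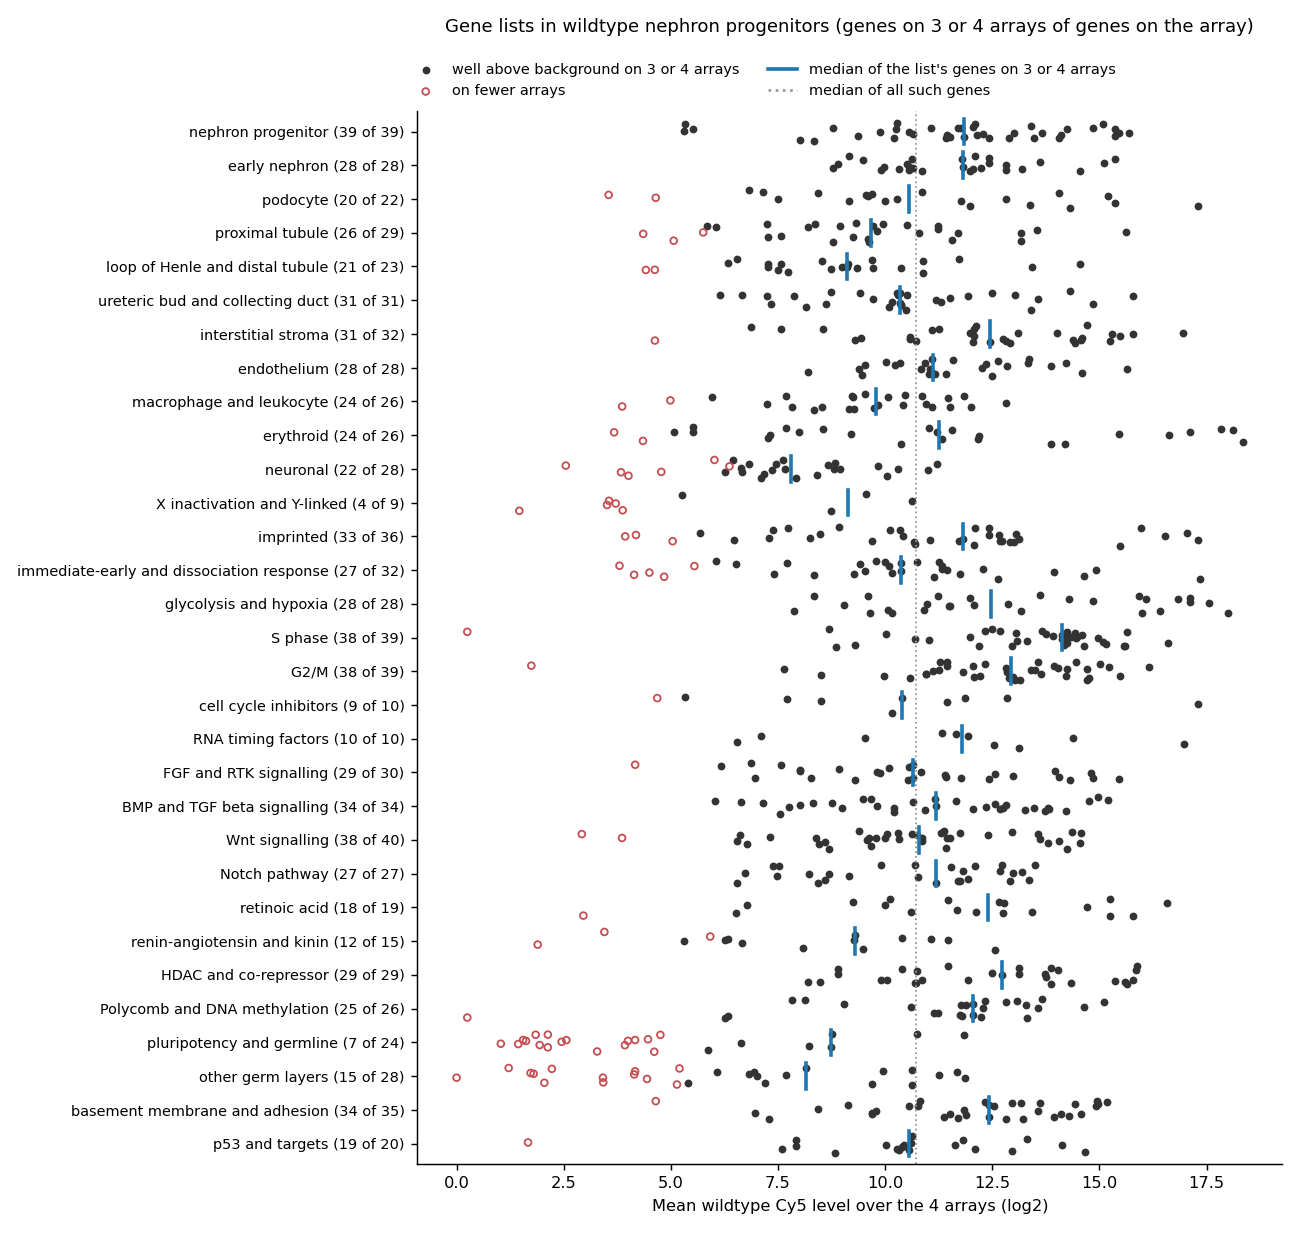
Mean wildtype Cy5 level (log2, over the 4 arrays) of each gene in the 31 lists. Filled points are genes well above background on 3 or 4 arrays, open points are on fewer, blue bars are medians of the filled points, and the dotted line is the median of all genes in the baseline (10.71). The S phase list has the highest median (14.12), and the pluripotency and germline list and the list of other germ layers have the most open points.

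Genes of distant fates set the lower bound. In the pluripotency and germline list 7 of 24 genes (29.2%) were well above background, led by Nanos3, Klf4 and Tdgf1. Sox2, Ddx4 and Dazl were not on any array, and Pou5f1 was on array 2 alone. In the list of liver, muscle, epidermis and lung genes 15 of 28 (53.6%) were, led by the epidermal factor Trp63, transferrin (Trf) and alpha-fetoprotein (Afp). The muscle genes Myod1, Myf5 and Ckm were not on any array. Both shares lie below the 71.0% of all symbols.

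The 20 brightest genes were mostly of translation, the cytoskeleton and chromatin. The tubulin Tuba1b stood first, at 18.63, 18.72, 18.55 and 18.56 in pools 1 to 4. Ribosomal proteins made up the largest share, among them Rpl29, Rpl37a, Rpl10, Rpl41, Rplp0, Rps16, Rps14, Rpl35 and Rps10. The rest included the predicted gene Gm8580, the histones H2ac12, H2aj and H2ac15, the globin Hba-a2, beta-actin (Actb), the exosome subunit Exosc2 and Slc10a1, a bile acid transporter of the liver. The last at 18.33 ± 0.04 shows what a single probe can and cannot say: a second Slc10a1 probe had Cy5 signals of -15.5, 11, -13.5 and 0.5 on the linear scale, at background. Such disagreement was not confined to that gene. Of 339 bright genes with 2 or more probes, 17 had another probe that was well above background on none of arrays 1, 3 and 4. Which probe reports the gene was not tested.

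The machinery that every cell needs was detected almost whole. Of 87 cytosolic ribosomal protein genes 84 were well above background and 81 were bright, with a median of 17.73. The 3 that were on none of arrays 1, 3 and 4 were Rpl10l, Rpl39l and Rpl3l, copies known from testis and muscle. All 36 subunits of respiratory complex I and all 17 of ATP synthase were measured, led by Ndufa13 (17.24 ± 0.06) and Atp5b (17.58 ± 0.11), and 15 of the 17 were bright. The same held for all 20 hnRNP proteins, 10 SR splicing factors, 25 spliceosomal Sm and Lsm proteins and 10 subunits of RNA polymerase II. Of 56 histone genes 54 were, 21 of them bright, led by H2ac12 (18.50 ± 0.10). Several families carry close copies that a probe may not separate, among them the histones, tubulins, globins and ribosomal proteins, and values of their single members are uncertain to that extent.

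Families of specialised cells had shares above, near and below that of all symbols (71.0%). Among the solute carriers, which move ions and metabolites across membranes, 79.5% of 332 were well above background and 4 were bright. The shares were 71.4% for 49 ABC transporters, 69.6% for 23 claudins, led by Cldn5 (13.83 ± 0.15), and 63.6% for 11 aquaporins, led by Aqp1 (11.18 ± 0.24). The first 2 lay near the share of all symbols. Without array 1 these shares were 81.6%, 82.6% and 81.8%, beside 75.9% of all symbols. Of 97 potassium channel genes 59.8% were well above background, and 28.6% of 14 serotonin receptor genes. The potassium channel share was 70.1% without array 1 or without array 3, where 75.9% of all symbols were well above background. Keratins stood at 49.0% of 49, led by Krt18 (15.77 ± 0.10), an epithelial keratin, and collagens at 83.7% of 43, led by Col1a2. The keratin share rested on the array count, with 69.4% without array 1 and 67.3% without array 3. The cytochrome P450 enzymes stood at 35.6% of 90 and the interleukins at 28.1% of 32, or 43.8% without array 3. Cyp26b1 (12.79 ± 0.30), which degrades retinoic acid, and Il33 (11.82 ± 0.26) were the brightest of each.

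The chemosensory receptors were at the bottom. Of 1072 olfactory receptor genes 34 (3.17%) were well above background, none bright, and 864 (80.6%) were on none of arrays 1, 3 and 4. The share rested on the array count: with at least 2 of 3 arrays asked for, it was 17.4% without array 1, 18.0% without array 3, 4.10% without array 4 and 3.26% without array 2, whose dim spots were raised. With array 2 counted, 330 were on no array. Olfr544 (11.99 ± 0.26) was the brightest of the 34. Of 252 vomeronasal receptor genes 14 (5.56%) and of 38 taste receptor genes 3 (7.89%) were well above background, the latter 15.8% without array 1 or array 3. Other low shares were those of the pregnancy-specific glycoproteins (7.69% of 13), the major urinary proteins (10.0% of 10) and the prolactin family (3 of 25). Without array 3, 5 of the 25 prolactin genes were, and no major urinary protein gene was well above background on all 4 arrays. Genes not well above background on any wildtype array numbered 1570 (7.52% of symbols). Without array 2 they numbered 4883 (23.4%), of which 3313 were flagged on array 2 alone.

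**Figure D4:**
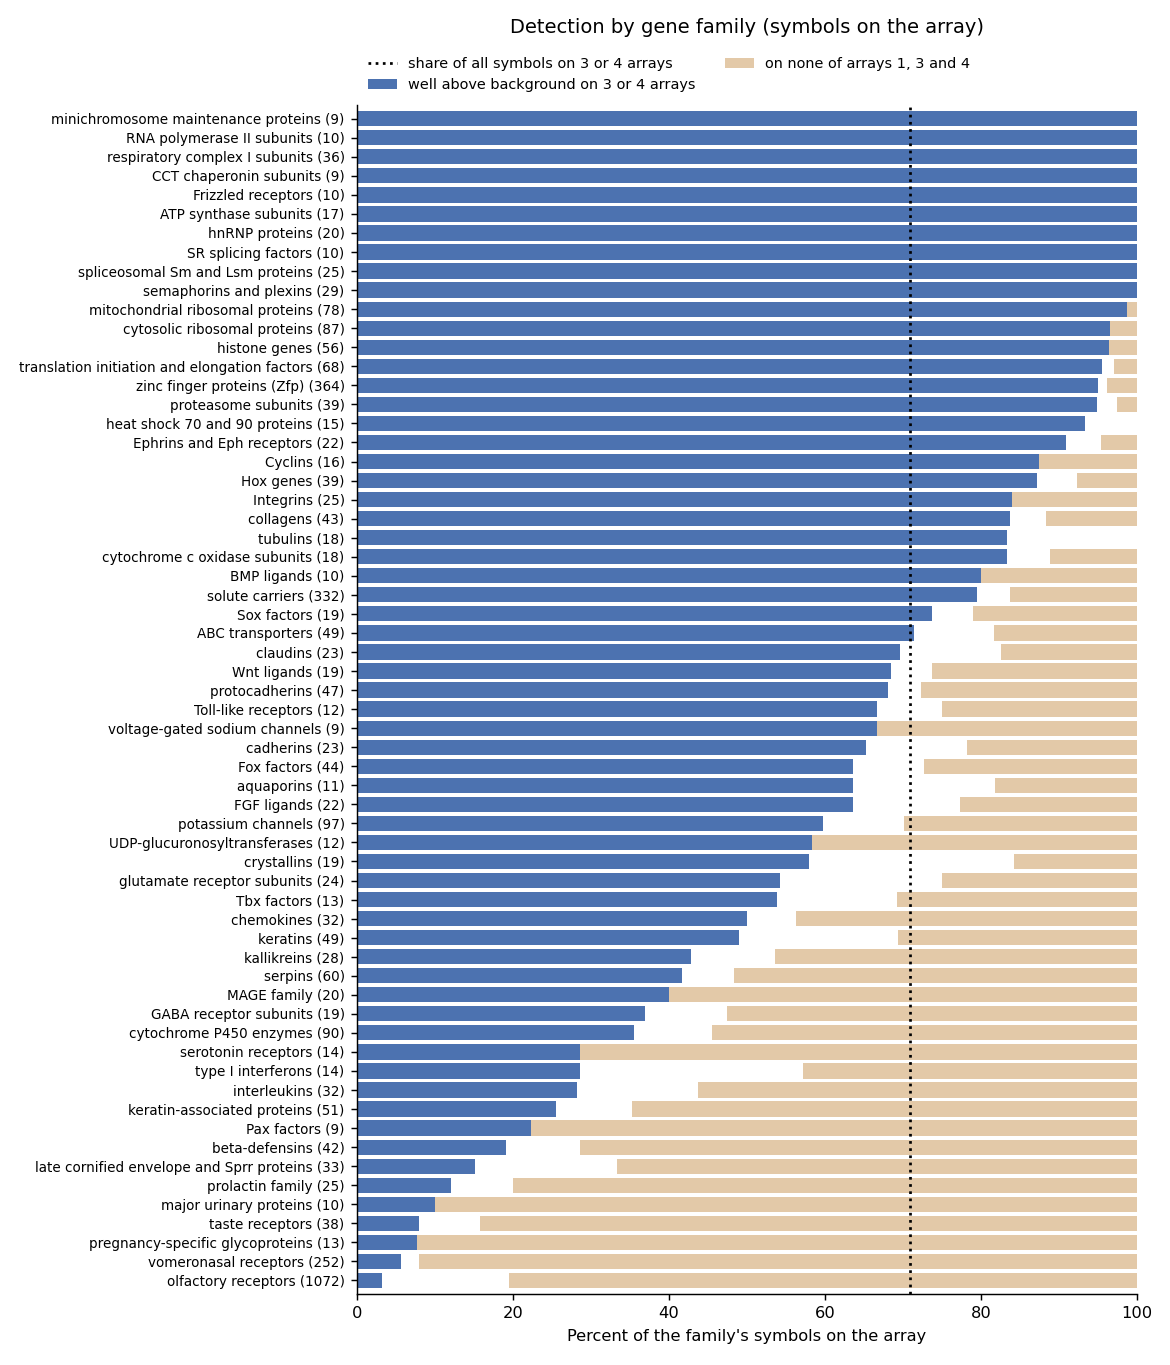
Percent of each gene family's symbols that were well above background on 3 or 4 wildtype arrays (blue, from the left) and on none of arrays 1, 3 and 4 (tan, from the right), for families with at least 9 symbols on the array, whose number is in brackets. The dotted line marks the share over all symbols (71.0%). The bars run from all subunits of RNA polymerase II down to 3.17% of olfactory receptors, a share that reached 17.4% without array 1 and 18.0% without array 3.

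Probes outside annotated coding genes were dimmer. Of 26585 probes named by a coding RefSeq transcript 19139 were well above background, with a median level of 10.34. Of 1400 named by a non-coding RefSeq transcript 39.6% were, with a median of 8.06. Of 16194 probes named only by a genomic interval 31.6% were, with a median of 6.99, and 12.4% of those reached a level of 10. Since dim spots were raised on array 2, the share that were on none of arrays 1, 3 and 4 is given too: 22.5% of the coding probes and 55.5% of the interval probes.

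Promoters of bright genes and of genes not measurable differed in base composition. Vertebrate promoters fall into those that are rich in CpG dinucleotides, typical of genes used in most cells, and those that are poor in CpG, often of genes restricted to a tissue. Promoters of 300 bases (250 before to 50 after the start) were taken from RefSeq, build GRCm38.p6, by symbol. Of 742 bright genes 600 matched (80.9%), and the median ratio of observed to expected CpG was 0.816. Of 1570 genes not well above background on any array 1261 matched (80.3%), and the median was 0.183. The median over all 27025 symbols in the promoter table, which also holds genes that are not on the array, was 0.389. A ratio above 0.6 was found in 80.0% of the bright promoters, in 11.3% of those not measurable and in 36.4% of all. For the olfactory receptors, 911 of 1072 matched, the median was 0.107 and 0.329% lay above 0.6. Of the 1570 genes not measurable, 330 were olfactory and 108 vomeronasal receptor genes. A check counts as void here where fewer than 80% of a set had a promoter, which holds for all symbols on the array (79.2%), the middle class (79.8%), the dim class (76.8%) and the nephron progenitor list (66.7%). As values only, the median was 0.608 for all symbols on the array, 0.770 for the middle class and 0.501 for the dim class, and 50.7%, 73.5% and 42.1% lay above 0.6. The bright class thus lay near the middle class, and nothing is read from its distance to the whole table. Without chemosensory receptors, genes on none of arrays 1, 3 and 4 had a median of 0.233, also a value only (77.9% matched).

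Short motifs were counted on both strands of the same windows. The letters TATAAA (the core of a TATA box) were in 11.2% of the bright promoters and 27.8% of those not measurable, beside 14.2% of all promoters in the table. GGGCGG (the GC box, which holds a CpG) was in 64.0%, 14.4% and 35.9%, and in 66.5% of the middle class and 48.7% of all symbols on the array. CCAAT was in 42.7%, 42.0% and 37.9%, and CACGTG, an E-box, in 11.7%, 4.60% and 7.24%. CTCTTTCC, a pyrimidine stretch like those at the starts of ribosomal protein genes, was in 3.50%, 2.54% and 3.04%. GGGCGG overlaps CpG by its own letters, so its shares are not independent of the CpG ratio. A match is a run of letters and not a binding site.

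To show these contrasts, 5 promoters follow in the direction of transcription, with every CpG in capitals. They are those of Six2 (chr17:85688205-85688504, minus strand) and Cited1 (chrX:102252132-102252431, minus strand, the first of 3 listed), the markers of these cells. Rplp0 (chr5:115559217-115559516, plus strand) stands for the bright ribosomal proteins, Pdzk1 (chr3:96829815-96830114, plus strand, the first of 2 listed) for the proximal tubule genes described below, and Olfr1 (chr11:73399446-73399745, minus strand) for the olfactory receptors. They hold 37, 18, 24, 4 and 1 CpG. The ratios of observed to expected CpG are 1.13 for Six2, 0.675 for Cited1, 0.928 for Rplp0, 0.205 for Pdzk1 and 0.0797 for Olfr1.
Six2: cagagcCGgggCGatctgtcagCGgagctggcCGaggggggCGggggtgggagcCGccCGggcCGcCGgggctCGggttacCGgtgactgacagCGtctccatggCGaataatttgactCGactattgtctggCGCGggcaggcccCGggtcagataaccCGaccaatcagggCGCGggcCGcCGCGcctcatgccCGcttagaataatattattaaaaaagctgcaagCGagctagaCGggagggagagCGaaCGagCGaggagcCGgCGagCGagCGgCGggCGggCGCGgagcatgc
Cited1: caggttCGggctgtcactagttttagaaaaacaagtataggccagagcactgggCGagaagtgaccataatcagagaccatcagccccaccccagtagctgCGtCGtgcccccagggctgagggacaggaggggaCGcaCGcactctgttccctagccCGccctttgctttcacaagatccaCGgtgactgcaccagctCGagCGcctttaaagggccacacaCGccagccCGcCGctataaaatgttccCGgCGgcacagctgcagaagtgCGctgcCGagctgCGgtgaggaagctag
Rplp0: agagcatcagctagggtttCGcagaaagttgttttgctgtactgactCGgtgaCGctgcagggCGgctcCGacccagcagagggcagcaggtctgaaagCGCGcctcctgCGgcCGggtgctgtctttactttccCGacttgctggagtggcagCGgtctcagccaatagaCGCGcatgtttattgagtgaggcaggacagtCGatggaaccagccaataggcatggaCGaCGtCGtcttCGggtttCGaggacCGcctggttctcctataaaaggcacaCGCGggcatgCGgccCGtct
Pdzk1: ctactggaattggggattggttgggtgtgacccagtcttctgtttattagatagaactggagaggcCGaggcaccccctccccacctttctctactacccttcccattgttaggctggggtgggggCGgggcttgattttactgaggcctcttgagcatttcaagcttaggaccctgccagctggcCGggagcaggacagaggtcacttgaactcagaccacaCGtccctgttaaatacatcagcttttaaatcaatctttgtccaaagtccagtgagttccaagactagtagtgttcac
Olfr1: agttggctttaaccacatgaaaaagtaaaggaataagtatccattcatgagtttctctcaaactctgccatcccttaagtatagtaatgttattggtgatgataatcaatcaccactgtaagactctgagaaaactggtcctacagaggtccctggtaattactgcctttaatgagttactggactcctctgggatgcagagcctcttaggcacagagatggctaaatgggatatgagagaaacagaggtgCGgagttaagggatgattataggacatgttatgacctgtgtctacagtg

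Genes of differentiated proximal tubule were lower in pool 2 than in pool 1, and higher in pools 3 and 4. Ratios of Cy5 to Cy3 after normalization within each array were used for this, which set each pool against pool 1. Of 21907 genes with values in all samples, 301 (1.37%) spanned 2-fold or more over the 3 wildtype samples. That count has no error of its own, since the other spreads at hand (pools 3 and 4, 2-fold or more apart for 2 genes, and the array with pool 1 in both dyes, off equality by as much for 2) are those of technical repeats. Pool 2 was lower than pool 1 by 2-fold or more for 0.694% of genes and higher for 0.0365%, and pools 3 and 4 were lower than pool 1 for 0.0183% and higher for 0.142%. These comparisons share pool 1, and each sets 1 sample against 1, with no test.

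Of 25 proximal tubule genes in that comparison, 12 were lower in pool 2 than in pool 1 by 2-fold or more and none higher, with a median difference of -0.93 (all genes, -0.06). The median of pools 3 and 4 minus pool 2 was 1.55 (all genes, 0.06), and 20 of the 25 differed by 2-fold or more. The 25 genes were all higher in pools 3 and 4 than in pool 2. Slc34a1 had log2 ratios of 0.11, -2.54, 1.33 and 1.20 in pools 1 to 4, and Lrp2 had -0.06, -1.69, 1.17 and 1.04. Pool 2 lay below the others, and pools 3 and 4 lay side by side at the top. In the list for distal tubule and loop of Henle the median of pools 3 and 4 minus pool 2 was 0.64 over 20 genes, and 6 differed by 2-fold or more. In the nephron progenitor list the same median was -0.10 over 39 genes, in the S phase list -0.14 over 38, and no gene of either spanned 2-fold. The direction was not particular to tubule lists. Above 0 were 17 of 18 podocyte genes (median 0.31), 26 of 28 endothelial (0.35) and 29 of 33 basement membrane genes (0.32). So were 9 of 10 renin-angiotensin genes (0.73). The G2/M, imprinted and glycolysis lists had medians below 0 (-0.04, -0.06 and -0.08).

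Globins differed between the pools in 2 directions. Globin genes switch in development, from the embryonic Hbb-y, Hbb-bh1 and Hba-x of the first red cells to the adult genes. The embryonic genes were highest in pool 2 and lowest in pools 3 and 4. Hbb-bh1 had log2 ratios of 0.05, 1.36, -1.36 and -0.76 in pools 1 to 4, Hbb-y had 0.26, 1.37, -0.85 and -0.46, and Hba-x had 0.12, 1.11, -0.79 and -0.57. The 5 adult genes were lowest in pool 2, as for Hbb-bt with 0.24, -0.47, 0.41 and 0.37. The embryonic globins were singled out after their values were seen, and none passed the test across genes (limma adjusted p = 0.100 for Hbb-bh1, 0.116 for Hbb-y and 0.173 for Hba-x). Hmga2, 1 gene of the timing list, had ratios of 0.32, 0.76, -0.16 and -0.08 and was highest in pool 2 (limma adjusted p = 0.116). Over the 10 genes of that list the median of pool 2 minus pool 1 was 0.08, with 7 above 0 and 3 below. None of them was called or spanned 2-fold.

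Mutant pools carry the same numbers, so a pool effect could be tested over 6 samples, 3 of each genotype. The test was the moderated F of limma over the pool numbers with genotype as a covariate and Benjamini-Hochberg adjustment over the 21907 genes. It called 29 genes (0.132%), against 3481 with an unadjusted p below 0.05. In 25 of the 29, pools 3 and 4 were the highest and pool 2 the lowest in both genotypes. The test takes disagreement between genotypes as error, so called genes share their order by selection, and this count supports nothing further. Of the 25 proximal tubule genes 3 were called, Amn, Pdzk1 and Acsm2. Among called genes with the same highest and lowest pool in both genotypes, those with the widest ranges over wildtype samples included Hsd3b4, Gsdmc3, Actg2, Hdc, S100g, Ly6c1, Ugt2b38, Ly6a and Amn. Their wildtype ranges ran from 3.38 down to 2.42 on the log2 scale, and their limma adjusted p from 0.0270 to 0.0430. Actg2 differed 9.23-fold between the lowest and the highest wildtype sample.

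Hsd3b4, a steroid dehydrogenase, had ratios of 0.07, -2.41, 1.03 and 0.90 in wildtype pools 1 to 4. Hdc, which makes histamine from histidine, had 0.00, -2.32, 0.59 and 0.54. The smooth muscle actin Actg2 had -0.05, -2.35, 0.90 and 0.81. Pool 2 was lowest for each. 2 called genes, chosen after their values were seen, ran otherwise: the nuclear phosphoprotein gene Anp32a was highest in pool 2 (-0.19, 1.11, -0.73 and -0.66), and renin (Ren1), made by stromal cells of the arterioles, was raised in pools 3 and 4 alone (-0.03, 0.14, 1.51 and 1.36). The calls are few and did not last under other settings. No gene was called with the background subtracted, with the scanner software's own ratios, with a trended and robust variance or without pool 2 of both genotypes, and 4198 were without wildtype pool 1. The pool number is also the column of the slide on which an array lay, so pool and slide column cannot be told apart. 

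**Figure D5:**
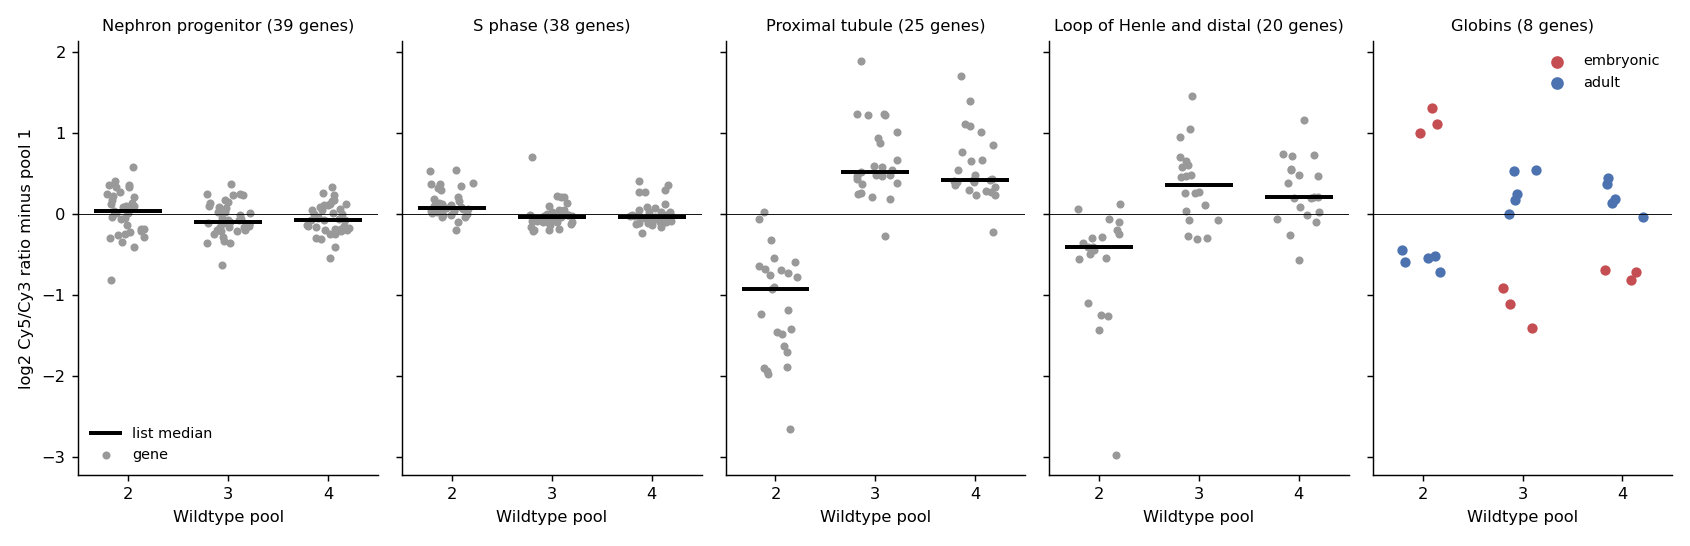
Normalized log2 Cy5/Cy3 ratio of wildtype pools 2, 3 and 4 minus that of pool 1, for genes of 4 lists and for 8 globin genes. Grey points are genes and black bars list medians. In the globin panel red points are embryonic and blue points adult genes. Proximal tubule genes lie below 0 in pool 2 (median -0.93) and above it in pools 3 and 4, nephron progenitor and S phase genes lie near 0, and the embryonic globins lie opposite to the adult ones in pool 2.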

How the data were processed

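Scanner files of the 8 two-colour arrays hold spot intensity on a linear scale per the file headers, and Agilent Feature Extraction 10.7.3.1 is named in the submitters' processing notes. A deposited value table holds log10 ratios of Cy5 over Cy3 that the authors took from that software. Its columns, with medians from 0 to 0.00483, correlated with the scanner log ratios at 0.999999 or more. Levels are log2 of median signal minus median local background, with values under 1 set to 1 for means over the 4 arrays. Spots of a probe were averaged, and a gene took its brightest probe. Symbols came from accessions matched to RefSeq (GRCm38.p6, used for names), for 27509 probes. Ratios were computed in R 4.3.3 with limma 3.58.1, using normexp background correction with an offset of 50 and then loess within arrays. Control and outlier spots had weight 0. Fits used lmFit and eBayes at an adjusted p of 0.05. On simulated data the fit called 92 of 100 genes changed by 1 on the log2 scale, 100 of 100 changed by 2 and 9 of 21707 unchanged. The simulation drew independent normal noise with the fitted variances and raised pool 2 equally in both genotypes. It thus met the assumptions of the fit, and its counts do not measure the power of the test on the real samples. Genes named are the 4 markers, the 20 brightest, per list the 3 brightest and up to 3 not well above background, the fixed cell type markers, the brightest of each family, the sex-linked genes and 10 called for the pool effect. Some others, with their values, were named after these were seen, as where a list or family had few members not measured. Some genes that the rule names are not reported here. Members, lists and rule were chosen with earlier results of these data known. Deviations of same-numbered wildtype and mutant samples correlated at 0.499, 0.547 and 0.531. Nothing in the sources used here says that pools share no animals, so p-values measure the spread between these samples, which may be technical, and precision is limited by how few arrays there are. Alternatives covered flags, dyes, scaling, samples left out and the fit.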

Additional observations from a re-analysis of the deposited data

Results flagged for a closer look

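On the wildtype 2 array the median spot signal was 337.5 in Cy5, where the other wildtype arrays had 39.5, 45 and 64, and 148 in Cy3, where they had 27.5, 32 and 44. The same array had 1811 spots marked non-uniform in Cy5, against 1 to 5 on the others. In each case its distance from the nearest other array as a share of the whole range (0.918, 0.863 and 0.998) was above Dixon's critical value for 4 values, which chance also passes at times. Its Cy3 RNA was that of wildtype pool 1, as on the other arrays. Among 21036 probes that were well above background on none of arrays 1, 3 and 4 in Cy5, 14317 were on array 2 in Cy5 and 13573 in Cy3, and the signals of both dyes correlated across these probes on array 2 with r = 0.983 (probes are not independent replicates). The counts of probes well above background stood apart by less than that limit. The cause was not tested.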

How the results depend on the processing

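The count of 14822 genes well above background lay between 14421 and 19317 under every alternative tried (14845 to 15862 with 1 array left out). The count of genes not well above background on any wildtype array, 1570, was 1749 with Cy3 flags and ran from 1588 to 4883 with 1 array left out, the highest without array 2. The 29 genes called for the pool number became 2180 with the 8 arrays as separate samples, 67 with no filter on dim probes, 0 with the background subtracted, with the scanner software's log ratio, with the deposited value table, with a trended and robust variance and with no genotype term, and ran from 0 to 4198 with 1 sample left out. Single samples left out gave 4198 (wildtype 1), 2 (wildtype 2), 1 (wildtype 3 and 4), 84 (mutant 1), 16 (mutant 2) and 0 (mutant 3 and 4). They were 0 without pool 2 of both groups and 0 at a wildtype level of at least 10 on every array, both chosen after seeing the data, 20 with probes well above background on all 8 arrays and 29 with quantile scaling. Where the count was 0, between 1600 and 3454 genes had an unadjusted p below 0.05, and the cause of these changes was not tested beyond the samples or genes left out. The median of pools 3 and 4 minus pool 2 in the proximal tubule list stayed between 1.32 and 2.02 in 14 settings. Over the alternatives, single genes followed between pools, the globins among them, stayed on their side of the threshold 110 times, lost a call 94 times and gained one 9 times, with no change of direction. Marker levels moved by less than the spread between samples 27 times and by more 9 times. Family shares lay inside a binomial interval over the family's genes 317 times and outside it 13 times, in 9 families. That interval is wide for small families and does not measure the spread between samples. With 1 array left out, chosen for the lists after seeing the data, the share of the pluripotency and germline list was 29.2% to 33.3% and that of other germ layers 53.6% to 60.7%, beside 71.1% to 75.9% of all symbols. No paired analysis was possible because the comparison is between the pool numbers themselves, which a term for the number would absorb.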
